A study of Mus musculus with 15 samples.

Results

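The genes examined here encode 6 signal transducers and activators of transcription (STATs), namely Stat2, Stat3, Stat4, Stat5a, Stat5b and Stat6, and 3 Janus kinases (JAKs), Jak1, Jak2 and Jak3. They were chosen by name, as 9 of the 20089 genes with complete entries in the expression table, and other genes of these families are not analysed here. All 9 passed the filter on low values (a mean of at least 0.1 FPKM over the samples), as did 11743 genes in all. FPKM, the unit of every level below, is the number of sequenced fragments scaled to the length of the transcript and to the depth of the library, so levels can be compared between genes.

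JAKs are kinases bound to the inner tails of cytokine receptors. When a cytokine brings its receptor chains together, the JAKs phosphorylate STAT proteins, which pair up, enter the nucleus and switch on target genes. STAT2 serves type I interferons as part of a complex with IRF9. STAT3 carries the signals of the IL-6 and IL-10 families, STAT4 those of IL-12, STAT6 those of IL-4 and IL-13, and STAT5A with STAT5B those of GM-CSF, IL-3 and related cytokines. In macrophages the pathway is known for interferon responses and for the choice between inflammatory and repair states, and SOCS proteins feed back on it. The kinases act in pairs on most receptors, and JAK3 works only beside the common gamma chain of the IL-2 receptor family.

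The data are RNA-seq of bone marrow-derived macrophages (BMDMs) from wild-type C57BL/6 mice, all grown in the macrophage growth factor M-CSF (50 ng/mL for 4 days in the study's methods, 3 days in the series' design text). Of the 15 samples, 3 were control cells with M-CSF alone, and the other 4 groups of 3 had RANKL or LPS (100 ng/mL each) added for 4 h or for 3 days, the latter called 72 h. RANKL, a cytokine of the TNF family, turns BMDMs into bone-resorbing osteoclasts, and LPS, a bacterial cell wall component, triggers an inflammatory response. A group kept for 72 h in M-CSF alone is not among the samples, so at 72 h the stimulus and the time in culture cannot be told apart. The study's methods give 4 to 8 weeks as the age of mice used for BMDMs. Whether samples of a group came from separate animals is not given in the labels, so p-values measure the spread between these samples.

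Recovered fragments on genes numbered 18120376 to 20078029 per library, and each member other than Stat4 had at least 432 fragments in every library. All 10 macrophage markers were at 1 FPKM or more on average in every group. All 10 osteoclast markers were so in RANKL 72 h, against 6 in each other group. Neutrophil granule genes, 10 in all, summed to 7706 to 24148 FPKM in control, 6522 to 21169 in LPS 4 h, 1869 to 7507 in RANKL 72 h and 322 to 2042 in LPS 72 h. Both 72 h groups thus lay wholly below control in neutrophil transcripts, whose part in the results was not tested. In bulk RNA, fewer cells of a type and less RNA per cell cannot be told apart. LPS 72 h replicate 3 stood apart from the other 2 of its group, at 46.4 and 31.6 times the sampling noise against 7.78 between those 2, and its macrophage markers summed to 17775 FPKM against 6389 and 8121.

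The 9 genes lie on 6 chromosomes of the mouse genome (GRCm38, GENCODE M21). Stat5b (chr11:100780731-100850724, minus strand), Stat5a (chr11:100859351-100885169, plus strand) and Stat3 (chr11:100885098-100939540, minus strand) are neighbours. Stat5a starts 8626 bases after the Stat5b span, back to back with it, and its 3′ end overlaps that of Stat3 by 72 bases. Stat6 (chr10:127642986-127660957, plus strand) and Stat2 (chr10:128270559-128292849, plus strand) are 609601 bases apart. Stat4 (chr1:51987148-52107189) shares 21.7% of its exonic 50-base words with the overlapping transcript Gm28177, Stat5a shares 8.21% with Stat5b, and Jak3 (chr8:71676296-71690575) shares 6.93% with other genes, Insl3 first, which overlaps it and stood at 0.0799 to 1.04 FPKM. Jak1 (chr4:101152367-101265282, minus strand) and Jak2 (chr19:29251828-29313080, plus strand) share none. How the counting treated shared or opposite-strand reads is not given in the sources used here, so the values of Stat4, Stat5a, Stat5b and Jak3 carry that uncertainty.

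RefSeq start-site windows (250 bases before to 50 after a start, GRCm38.p6) were available for all 9 genes, 12 windows in all. Shown here are the Stat2 window, since Stat2 went most closely with interferon response genes, and the window of Stat5a that holds a motif match, since Stat5a rose early with LPS. Both strands were searched for the interferon-response element core (GAAA, any 2 bases, GAAA, in 3.44% of all 32851 windows), the STAT core (TTCNNNGAA, in 8.3%) and the NF-kappaB consensus (in 8.46%). The interferon core stood in the Stat2 window and in the second Stat4 window. The NF-kappaB consensus stood in 1 of 12 windows, the second of Stat5a, and the STAT core in 0 of 12. The windows of Jak2 and Stat3, which also rose early with LPS, and the first Stat5a window held no match. In Stat2 the core reads on the opposite strand, 222 to 213 bases before the start. In the sequences, capitals mark the match, and each is a description of letters, not of binding.
Stat2, chr10:128270248-128270547, plus strand: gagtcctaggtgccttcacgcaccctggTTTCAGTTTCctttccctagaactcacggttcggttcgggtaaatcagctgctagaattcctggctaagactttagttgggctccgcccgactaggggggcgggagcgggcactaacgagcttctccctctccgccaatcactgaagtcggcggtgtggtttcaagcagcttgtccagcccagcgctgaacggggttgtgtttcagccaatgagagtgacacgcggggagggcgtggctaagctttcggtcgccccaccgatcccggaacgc
Stat5a window 2, chr11:100860234-100860533, plus strand: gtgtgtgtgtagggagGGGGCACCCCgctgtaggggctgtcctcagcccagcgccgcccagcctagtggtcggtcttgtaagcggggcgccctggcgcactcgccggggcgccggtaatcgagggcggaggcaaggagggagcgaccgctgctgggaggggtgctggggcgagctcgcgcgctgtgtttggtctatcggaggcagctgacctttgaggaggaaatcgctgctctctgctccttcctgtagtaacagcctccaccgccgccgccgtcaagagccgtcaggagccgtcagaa

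Stat5a and Stat5b encode near-identical proteins. In the highest-scoring pair of their windows, a stretch before 1 start of Stat5a and across 1 start of Stat5b is also alike. There 83 of 104 aligned columns were identical (79.8%), with a score of 56, against 11, 15 and 19 for the other pairs. The Stat5b start of this pair lies within the span of the gene. The stretch is shown because the Stat5a and Stat5b transcripts behaved differently under LPS. Here capitals mark the identical bases, and the NF-kappaB match of Stat5a lies outside the shared stretch.
Stat5a, chr11:100860381-100860482, plus strand: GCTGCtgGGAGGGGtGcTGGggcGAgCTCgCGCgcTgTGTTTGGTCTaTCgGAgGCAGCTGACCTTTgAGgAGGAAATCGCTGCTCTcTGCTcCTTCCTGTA
Stat5b, chr11:100822563-100822664, minus strand: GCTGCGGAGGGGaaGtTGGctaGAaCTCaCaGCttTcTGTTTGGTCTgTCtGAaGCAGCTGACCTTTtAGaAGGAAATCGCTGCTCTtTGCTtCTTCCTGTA

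To ask how an inflammatory stimulus changes this machinery early, LPS 4 h was compared with control. Jak2, Stat5a and Stat3 rose, and Stat6 fell. Jak2, the kinase of the GM-CSF and IFN-gamma receptors, was at 8.86, 6.83 and 7.55 FPKM in control and at 42.4, 59.6 and 59.1 FPKM in LPS 4 h. The groups were far apart, with a 6.81-fold rise (log2 fold change 2.77, SE 0.19, adjusted p = 1.03e-07). Stat5a went from 5.09, 5.39 and 6.20 FPKM to 32, 30.8 and 14.6 FPKM, a 4.33-fold rise (log2 fold change 2.11, SE 0.24, adjusted p = 6.58e-06). Replicate 3 of LPS 4 h lay well below the other 2 and still above every control library, and without it the log2 fold change was 2.48. Stat3 stood at 34.8, 30.4 and 33.7 FPKM in control and at 84.3, 90.7 and 74.2 FPKM in LPS 4 h. This was a 2.51-fold rise with no overlap (log2 fold change 1.33, SE 0.11, adjusted p = 4.13e-07). All adjusted p-values here are from limma with Benjamini-Hochberg adjustment over 11743 genes, and folds are on the log2(FPKM + 0.1) scale.

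Stat6, which relays IL-4 and IL-13, went the other way. Its 3 control libraries were at 56.0, 62.6 and 64.8 FPKM and its LPS 4 h libraries at 30.7, 36.8 and 34.6 FPKM, all below control (log2 fold change -0.84, SE 0.13, adjusted p = 0.000117). In the same comparison the median tested gene lay at -0.52 on the log2 scale, so Stat6 fell by little more than a typical gene. With each library centred on its median gene, Stat6 changed by -0.28 (adjusted p = 0.0408), short of the fold required, whereas Jak2, Stat5a and Stat3 rose by 3.33, 2.68 and 1.89. Centring also brought Stat2 (1.08), Jak1 (0.72) and Jak3 (0.76) past the threshold as higher, and turned the small differences of Stat4 and Stat5b from -0.42 and -0.16 to 0.15 and 0.40, neither of them called.

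A gene counted as called at a fold above 1.5 or below 0.66 with an adjusted p under 0.05. By that rule 3 of the 9 were higher and 1 was lower in LPS 4 h, where 8.43% of all tested genes were called higher and 39.7% lower, 48.1% in all. After centring, 6 were higher and 0 lower, against 15.9% and 13.0% of all genes, 29.0% in all. The groups did not overlap for 5 of 9 members, Stat2 (above control) and the 4 called, and for 66.8% of all genes.

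**Figure D1:**
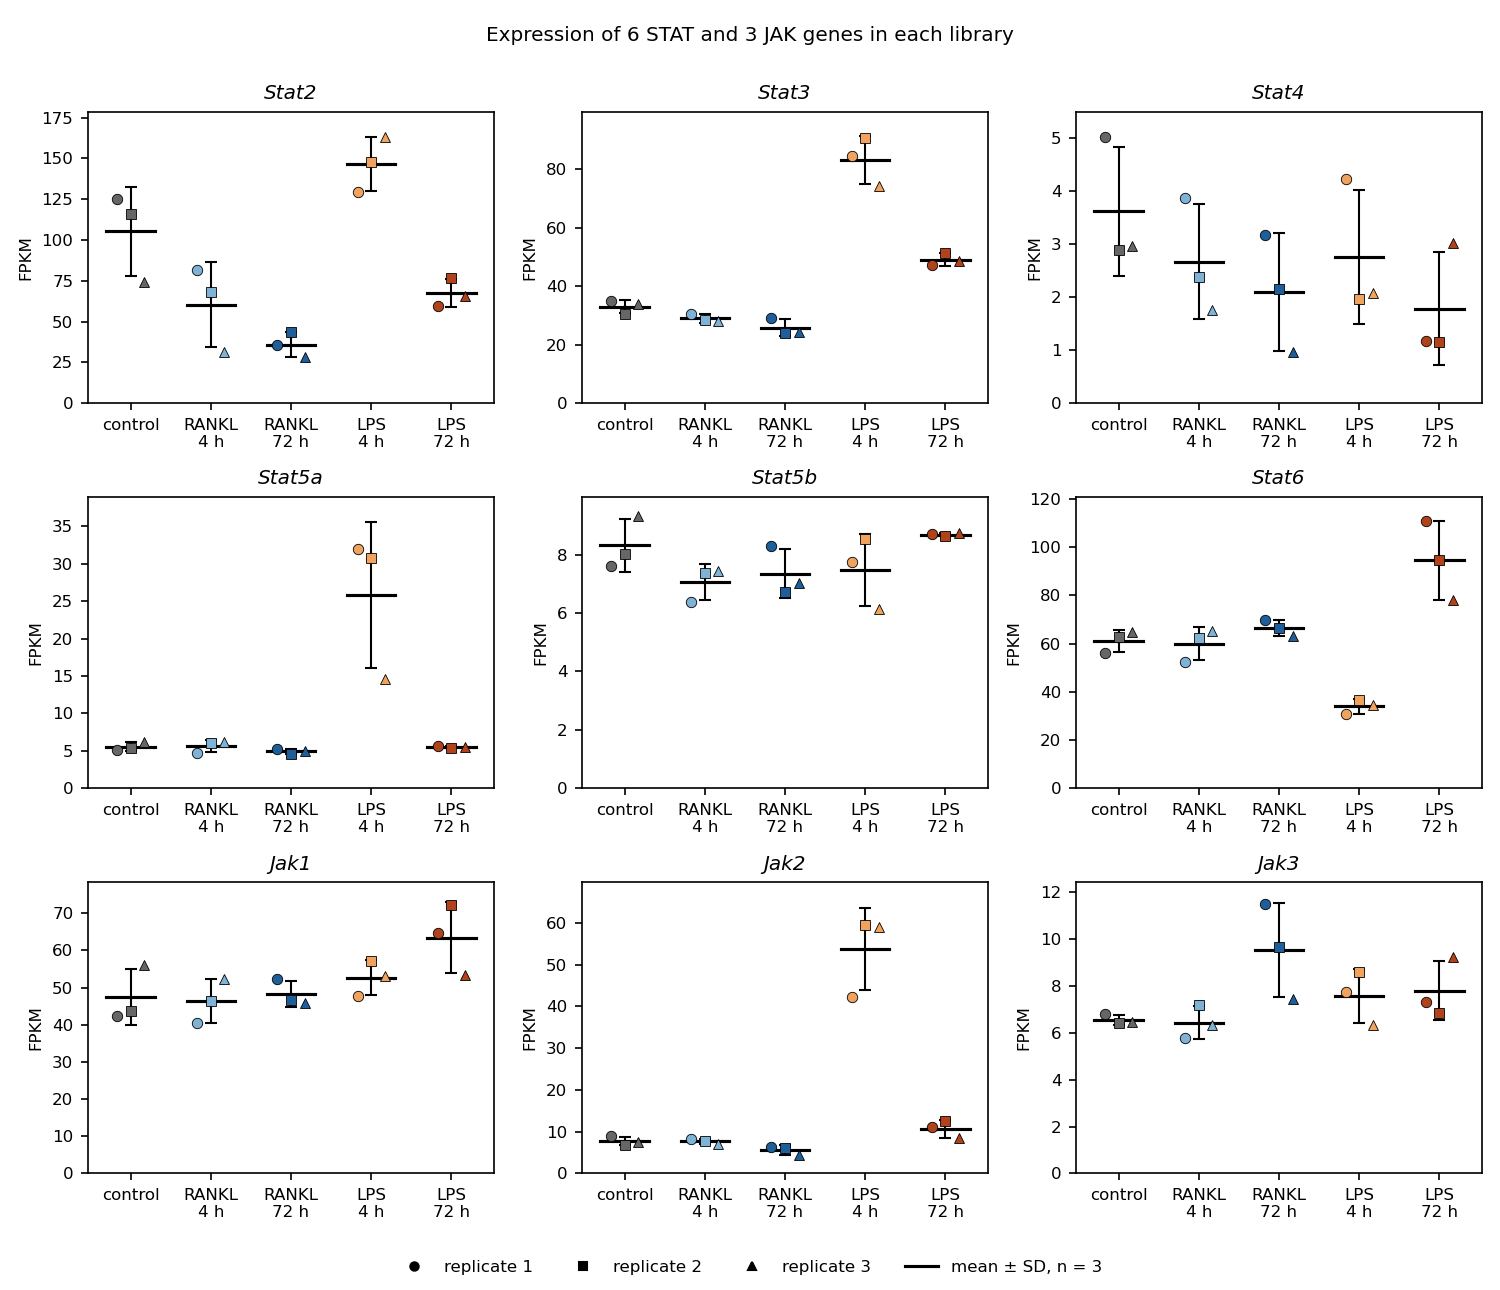
Level in FPKM (vertical axes from 0, linear) of each of the 9 genes in the 5 groups, with a point for each of the 3 libraries and a line for the mean ± SD. Jak2 at 42.4 to 59.6 FPKM and Stat5a at 14.6 to 32 FPKM in LPS 4 h stand clear of all other libraries, and Stat2 is lowest in RANKL 72 h.

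**Figure D2:**
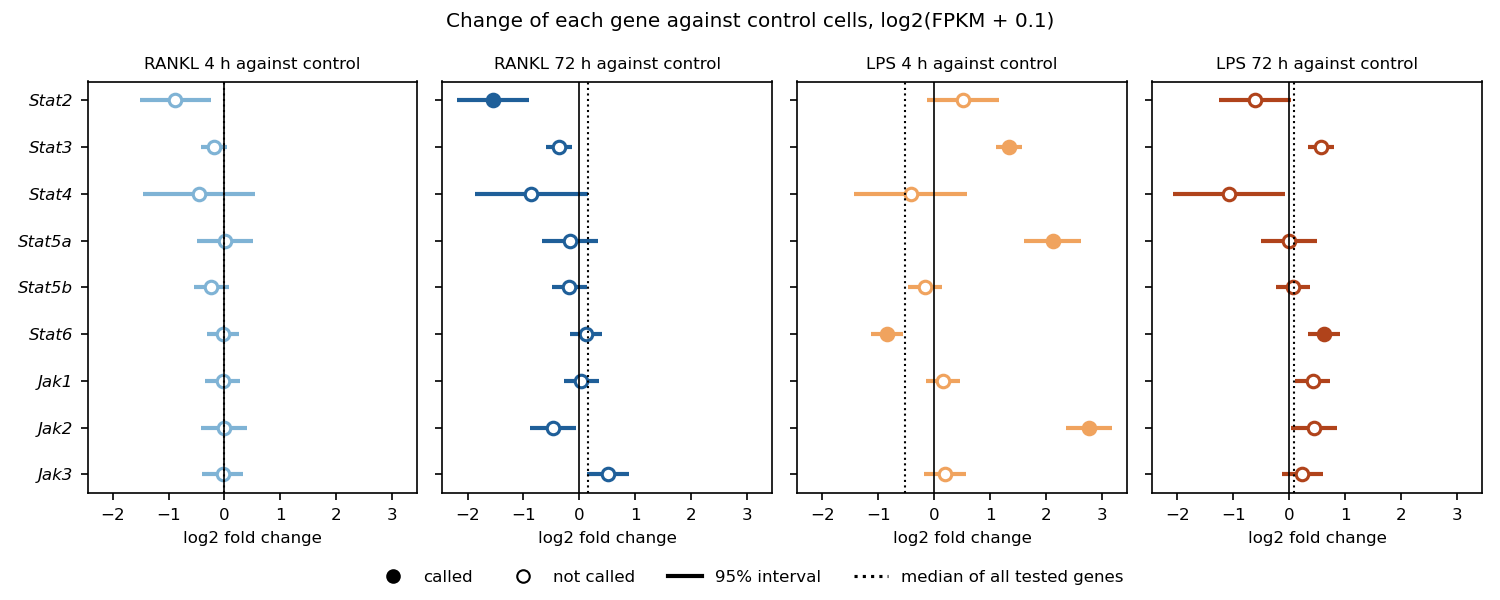
Log2 fold change against control (horizontal axes, on the log2(FPKM + 0.1) scale) of the 9 genes in 4 comparisons, with 95% intervals. Filled points passed the threshold, and the dotted line is the median tested gene, at -0.52 in LPS 4 h.

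Within a library, the ratio of a gene to its relative does not depend on how libraries are scaled. Stat5a over Stat5b was 0.664 to 0.674 in control and 4.12, 3.62 and 2.38 in LPS 4 h, and the 3 LPS 4 h values lay above those of all 12 other libraries. In LPS 72 h the ratio was 0.626 to 0.655. Jak2 over Jak1 was 0.135 to 0.209 in control and 0.888 to 1.12 in LPS 4 h, so that Jak2 transcripts reached the level of Jak1 in that group. Stat3 over Stat6 was 0.486 to 0.62 in control and 2.14 to 2.74 in LPS 4 h, and back at 0.426 to 0.619 in LPS 72 h.

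**Figure D3:**
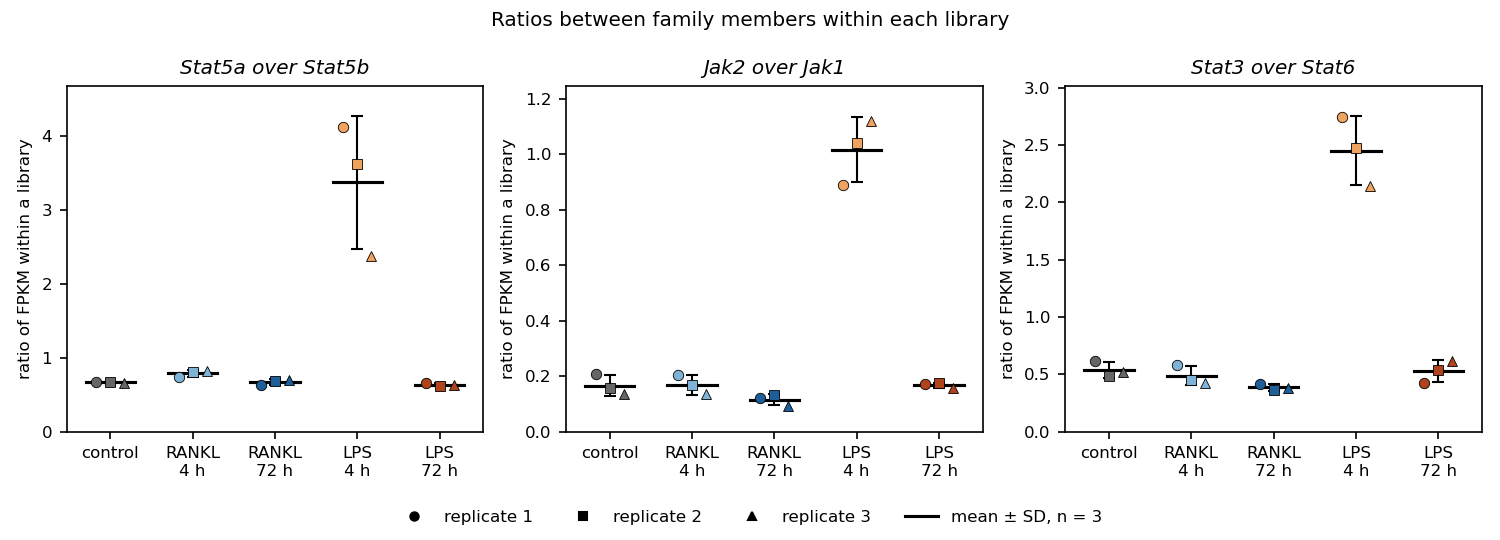
Ratio of the FPKM of 2 genes in the same library (vertical axes from 0, linear) for Stat5a over Stat5b, Jak2 over Jak1 and Stat3 over Stat6, with a point per library and the mean ± SD (n = 3). In each panel the 3 LPS 4 h libraries lie above the 12 others.

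To ask which members change as BMDMs become osteoclasts, RANKL 72 h was compared with control. Stat2 fell, and no other member was called. Its levels were 125, 116 and 74.2 FPKM in control and 35.4, 43.6 and 28.3 FPKM in RANKL 72 h, every RANKL library being below every control library. The log2 fold change was -1.54 (SE 0.30, 95% interval -2.18 to -0.90, adjusted p = 0.00196), to 0.344 of control. Called members were thus 1 of 9, against 24.2% of all genes, with 16.6% called higher and 7.54% lower. The groups did not overlap for 4 members (49.1% of all genes), namely Stat2, Stat3 and Jak2 below control and Jak3 above it.

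The other 3 of these were smaller. Stat3 was at 29.1, 24.1 and 24.1 FPKM in RANKL 72 h, with a log2 fold change of -0.36 (SE 0.11, adjusted p = 0.0232) that did not reach the fold required. Jak2 was at 6.35, 6.18 and 4.33 FPKM, with a log2 fold change of -0.47 (adjusted p = 0.0784), and -0.69 (adjusted p = 0.0129, called) after centring on the median gene, which itself lay at 0.16. Jak3, which pairs with the common gamma chain, was at 11.5, 9.64 and 7.46 FPKM against 6.78, 6.42 and 6.44 FPKM in control. Its log2 fold change of 0.51 (SE 0.17, adjusted p = 0.0382) missed the fold of 1.5 narrowly, and was 0.68 and called without RANKL 72 h replicate 3, and 0.29 (adjusted p = 0.233) after centring. The 18 stromal markers summed to 505 to 2244 FPKM in RANKL 72 h and 183 to 405 FPKM in control, and the 3 genes most like Jak3 over the libraries were the matrix genes and sulfatase Sulf1, Hspg2 and Fbn1. The part of stromal transcripts in the Jak3 values was not tested.

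Stat2 varied widely even among untreated cells, and in 4 of the 5 groups its replicates ranked like those of other interferon response genes. A list of 19 measured interferon response genes, such as Ifit3, Isg15 and Rsad2, had a mean log2(FPKM + 0.1) of 7.43, 6.73 and 5.98 in control replicates 1, 2 and 3, in the same order as Stat2. In RANKL 4 h the list stood at 6.86, 6.00 and 4.95, beside Stat2 at 81.5, 68.1 and 31.3 FPKM, again in the same order. RANKL 72 h libraries were at 4.62, 5.11 and 4.74, beside Stat2 at 35.4, 43.6 and 28.3 FPKM, where the order did not match, since replicate 1 was lowest on the list and replicate 3 for Stat2. The list stood highest in LPS 4 h, at 8.41, 8.44 and 8.50, where Stat2 was at 129, 148 and 163 FPKM. The LPS 72 h libraries had list levels of 4.92, 5.78 and 5.23, of which 5.78 and 5.23 exceeded every RANKL 72 h level. In RANKL 72 h against LPS 72 h, 3 of the 19 genes were called lower and 0 higher, 15.8% against 36.1% of all genes. The list median log2 fold change there was -0.49, against 0.11 over all genes. Stat2 in LPS 72 h was at 59.4, 76.6 and 65.9 FPKM, above all 3 RANKL 72 h libraries. Over the 15 libraries the list level correlated with Stat2 at r = 0.92, but the tie was not particular to Stat2. Pearson's r was 0.83 for Jak2, 0.76 for Stat5a, 0.71 for Stat3 and -0.84 for Stat6. The other members lay between -0.32 and 0.44. Of the 19 genes, 16 (18 when centred) were called lower and 0 higher in RANKL 72 h against control. That is 84.2%, against 24.2% of all genes, with a median log2 fold change of -1.96 against 0.16 over all genes. Ifit3, an interferon-induced antiviral gene, fell most (285 ± 215 FPKM in control, 23.4 ± 5.96 in RANKL 72 h, SD, n = 3, log2 fold change -3.30, adjusted p = 0.00375).

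**Figure D4:**
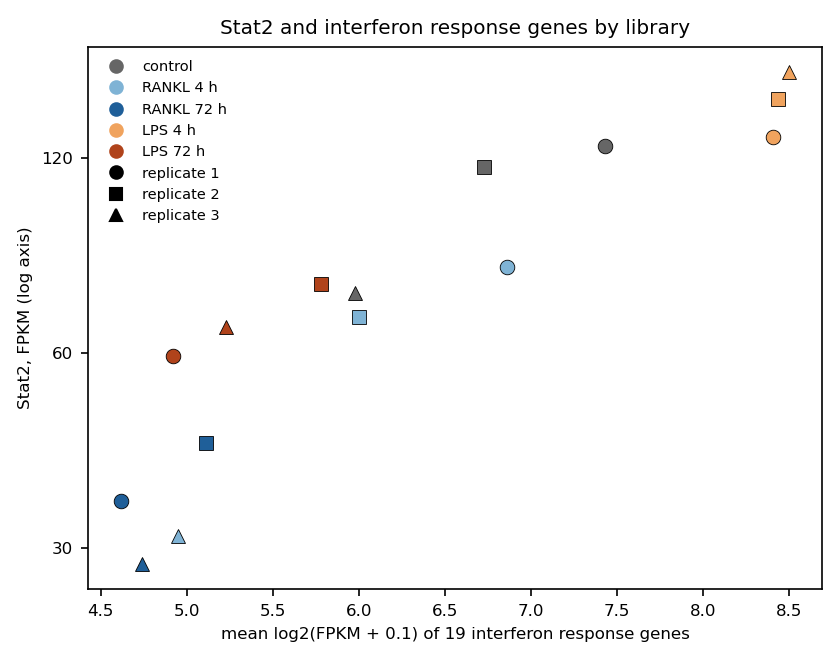
Stat2 in FPKM (vertical, log axis) against the mean log2(FPKM + 0.1) of 19 interferon response genes (horizontal) in each of the 15 libraries, coloured by group, with the shape giving the replicate number. LPS 4 h libraries are highest on both axes, RANKL 72 h libraries are low on both, and control libraries range from 74.2 to 125 FPKM.

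RANKL for 4 h left no member called, where 0.119% of all genes were called. Among the 9, only Stat2 had an unadjusted p under 0.05 in limma and a fold past the limit, as did 2.56% of all genes, with a log2 fold change of -0.88 (95% interval -1.52 to -0.24, adjusted p = 0.598). Its highest RANKL 4 h library (81.5 FPKM) exceeded the lowest control (74.2 FPKM). Same-numbered samples deviated together in this comparison (r of 0.71 to 0.84), and in each of the 3 such pairs Stat2 was lower in the RANKL sample (125 and 81.5, 116 and 68.1, 74.2 and 31.3 FPKM), as was the interferon list. In a fit with a term for the replicate number, Stat2 had an adjusted p of 0.304. For Jak1, Jak2, Jak3, Stat5a and Stat6 the log2 fold changes lay between -0.03 and 0.01. The 95% interval for Jak2 ran from -0.42 to 0.41, so a change of that size is not shown to be absent. For 1 member of 9 the groups did not overlap (10.8% of all genes), namely Stat5b, at 6.37, 7.37 and 7.45 FPKM against 7.62, 8.0 and 9.34 FPKM in control (log2 fold change -0.23, adjusted p = 1).

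After 72 h of LPS the early pattern had largely gone, and Stat6 was higher than in control. Stat6 stood at 111, 94.7 and 78.2 FPKM, above the 3 control libraries (log2 fold change 0.62, SE 0.13, adjusted p = 0.00289). It was the single member called, against 27.4% of all genes, with 13.0% called higher and 14.4% lower. The call is close to the fold required: the log2 fold change was 0.50 without LPS 72 h replicate 1, 0.56 without control replicate 1 and 0.54 after centring, in each case short of the fold with an adjusted p of 0.0163, 0.0146 and 0.00116. Stat3 remained above control at 47.3, 51.4 and 48.4 FPKM, with a log2 fold change of 0.57 (SE 0.11, adjusted p = 0.00122), just under the fold required. Jak1, the kinase shared by interferon and IL-6 family receptors, was at 64.8, 72.2 and 53.3 FPKM against 42.5, 43.8 and 56.1 FPKM, overlapping control (log2 fold change 0.42, SE 0.14, adjusted p = 0.0363). Stat5a, at 5.69, 5.40 and 5.53 FPKM, lay within the range of control (log2 fold change 0.00, 95% interval -0.51 to 0.50). Without LPS 72 h replicate 3, the library that stood apart, 3 members were called, against 33.7% of all genes, namely Stat6 higher, Jak2 higher (0.61, adjusted p = 0.0215) and Stat4 lower (-1.51, adjusted p = 0.0204). The groups did not overlap for 3 members, Stat3, Stat6 and Jak3, all above control, against 44.1% of all genes. Stat2 overlapped control (log2 fold change -0.62, 95% interval -1.26 to 0.02, adjusted p = 0.123).

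LPS 72 h was also compared directly with LPS 4 h, a difference that holds both the time with LPS and the time in culture. Jak2 (log2 fold change -2.32, SE 0.19, adjusted p = 3.7e-07), Stat5a (-2.11, SE 0.24, adjusted p = 4.07e-06), Stat2 (-1.12, SE 0.30, adjusted p = 0.00425) and Stat3 (-0.75, SE 0.11, adjusted p = 3.61e-05) were lower at 72 h. Stat6 was higher (1.46, SE 0.13, adjusted p = 7.58e-07), and 0.81 after centring. The 5 of 9 called compare with 58.1% of all genes (44.2% higher, 13.9% lower), and the 6 whose groups did not overlap with 68.0%. For Jak1, Stat5b and Jak3 the sign depended on the scaling, from 0.26, 0.23 and 0.04 as deposited to -0.39, -0.42 and -0.61 when centred. The median log2 fold change of all genes was 0.52 as deposited and -0.13 when centred. Jak3 was then called, close to the limit of -0.60. RANKL 72 h against RANKL 4 h gave no member called (23.3% of all genes, 16.4% higher and 6.83% lower), with 2 of 9 not overlapping against 49.0%, and Jak3 nearest at a log2 fold change of 0.55 (SE 0.17, adjusted p = 0.0306).

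To separate RANKL from LPS, the stimuli were compared at each time. At 72 h, Stat2 (log2 fold change -0.92, SE 0.30, adjusted p = 0.0212), Stat3 (-0.93, SE 0.11, adjusted p = 1.45e-05) and Jak2 (-0.92, SE 0.19, adjusted p = 0.00158) were lower with RANKL than with LPS, 3 of 9 against 36.1% of all genes, with 23.3% called higher and 12.8% lower. Stat6 (-0.50, adjusted p = 0.00777) and Jak1 (-0.38, adjusted p = 0.0424) were under the fold required. Stat6 was called when centred (-0.63, adjusted p = 0.000198) and without LPS 72 h replicate 3 (-0.63, adjusted p = 0.00107), where 4 members and 41.3% of all genes were called. In all, 7 of 9 members lay wholly below their LPS 72 h values and 0 wholly above, where 51.5% of all genes did not overlap. The Stat2 call was lost without LPS 72 h replicate 2 (-0.83, adjusted p = 0.0753) or RANKL 72 h replicate 3 (-0.77, adjusted p = 0.0821). At 4 h, Jak2 (-2.77), Stat5a (-2.11), Stat3 (-1.52) and Stat2 (-1.39) were lower and Stat6 higher (0.81, or 0.25 and not called when centred) with RANKL. Thus 4 of 9 were lower, against 8.98% of all genes, and 1 was higher, against 41.0%. The 5 did not overlap, nor did 68.2% of all genes. Without RANKL 4 h replicate 3 the Stat2 difference was -0.97. RANKL and LPS share the control samples, so their changes against control are not independent.

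The scaling bears on these counts. With every library centred on its median gene, the members called against control were 2 in RANKL 72 h (22.1% of all genes), 0 in RANKL 4 h (0.0937%) and 0 in LPS 72 h (26.4%). Between stimuli they were 4 at 72 h (36.5% of all genes) and 7 at 4 h (29.7%). Between times they were 1 for RANKL (21.2% of all genes) and 7 for LPS (46.3%). With FPKM rescaled to equal sums, 2 were called in RANKL 72 h (27.6% of all genes), 2 in LPS 72 h (26.8%) and 1 in RANKL 72 h against RANKL 4 h (26.5%). Without adjustment of p, 2 were called in LPS 72 h (31.0% of all genes) and 1 in RANKL 72 h against RANKL 4 h (28.3%).

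Stat4, Stat5b, Jak1 and Jak3 were called in no comparison as deposited. Stat5b kept between 6.12 and 9.34 FPKM in all 15 libraries and its group means between 7.06 and 8.68 FPKM. Jak1 means ranged from 46.4 to 63.4 FPKM, and Jak3 means from 6.42 to 9.52 FPKM. Stat4, the transducer of IL-12 signals best known in T and NK cells, was the lowest member in every group, with means from 1.78 to 3.62 FPKM and 62 to 346 fragments per library. Its libraries differed by up to 3.31-fold within a group, and control replicate 1 at 5.02 FPKM and LPS 72 h replicate 3 at 3.01 FPKM were each the highest of their group. The 15 T and NK cell markers summed to 44.1, 19.5 and 18.8 FPKM in control and 14.2, 30.4 and 77.6 FPKM in LPS 72 h, and 3 of 15 and 5 of 15 of them reached 1 FPKM on average. Their part in the Stat4 values was not tested.

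Ordered by level, control cells had Stat2 first (105 ± 27.3 FPKM, SD, n = 3), then Stat6 (61.1 ± 4.57) and Jak1 (47.4 ± 7.49), whose values overlapped, and Stat3 (33.0 ± 2.26). A wide gap separated these 4 from Stat5b (8.32 ± 0.90) and Jak2 (7.75 ± 1.03), which overlapped, then Jak3 (6.55 ± 0.20), Stat5a (5.56 ± 0.58) and Stat4 (3.62 ± 1.21). In LPS 4 h, Stat3 (83.1 ± 8.33) and Jak2 (53.7 ± 9.81) moved up behind Stat2 (147 ± 16.7), Jak2 overlapping Jak1 (52.6 ± 4.74), and Stat6 (34.0 ± 3.05) came after these 4, overlapping Stat5a (25.8 ± 9.74). In RANKL 72 h and in LPS 72 h, Stat6 came first (66.5 ± 3.34 and 94.7 ± 16.4), clear of the next. Stat2 made up 28.4% to 42.9% of the summed FPKM of the 9 genes in control libraries and 15.2% to 20.7% in RANKL 72 h.

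The genes whose log2 values ran most like a member over the 15 libraries are given as a description, since the libraries share groups. For Jak2 they were Cflar (Pearson's r = 0.988), which encodes the death receptor inhibitor c-FLIP, Plagl2 (0.988) and Peli1 (0.984), an E3 ligase of Toll-like receptor signalling. For Stat3 they were Samsn1 (0.985), Abtb2 (0.983) and the chemokine gene Cxcl1 (0.982). Stat5a ran with the phosphatase gene Dusp2 (0.976) and the chemokine gene Ccl20 (0.974), and Stat2 with Trim30d (0.979), Trim30a (0.97) and Adar (0.968), the RNA-editing enzyme. Stat6 ran with Slc35a1 (0.989), Cyhr1 (0.987) and Tex261 (0.985), and Jak1 with Irs2 (0.944), the insulin receptor adaptor. The closest genes to Stat4 (Jchain, 0.875, an immunoglobulin chain gene) and Stat5b (Itga1, 0.668) were less alike.

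Around the STATs and JAKs, the rest of the pathway was read in gene lists, chosen with earlier results of these data known. Without LPS 72 h replicate 3, the counts of the shorter lists in LPS 72 h changed by at most 2 genes in either direction. The widest list was not recounted that way. The widest list, 118 tested genes that the table's own annotation puts in the JAK-STAT pathway (the STATs and JAKs included), was called at shares near those of all genes. These were 54.2% against 48.1% in LPS 4 h, 31.4% against 27.4% in LPS 72 h and 22% against 24.2% in RANKL 72 h. In LPS 4 h, 42 were higher and 22 lower. Of 28 listed cytokines that signal through JAKs, 21 passed the filter. That filter used the mean over all samples, so genes high only with LPS could pass through those groups. Of the 21 tested cytokines, 19 were called higher and 0 lower in LPS 4 h. That is 90.5%, against 48.1% of all genes, of which 8.43% were higher and 39.7% lower. The median log2 fold change of the 21 was 3.75. Il6 went from 0.559 ± 0.208 to 272 ± 8.93 FPKM (log2 fold change 8.74, adjusted p = 2e-08), Il12b, a chain of IL-12 and IL-23, from 0.642 ± 0.385 to 119 ± 16.1 FPKM, and Il27 from 4.17 ± 2.28 to 543 ± 160 FPKM. At 72 h of LPS, 9 were higher and 2 lower (52.4%, against 27.4% of all genes). Csf3 led the rises (9.11 ± 4.86 against 0.0414 ± 0.0287 FPKM, with at most 4 fragments in any control library). In RANKL 72 h only Lif was higher (1.90 ± 0.858 against 0.234 ± 0.11 FPKM) and 5 were lower, 28.6% against 24.2% of all genes. Ifnb1 was among the 5 (0.0868 ± 0.0398 against 2.14 ± 1.62 FPKM, with at most 2 fragments in any RANKL 72 h library, adjusted p = 0.00435).

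Receptor genes moved both ways. Of 34 JAK-coupled receptor chains, 8 rose and 8 fell in LPS 4 h, or 14 and 3 when centred. The 47.1% called is near the 48.1% of all genes, of which 8.43% were higher and 39.7% lower. Il15ra, the IL-15 receptor chain, rose from 5.26 ± 2.56 to 50.4 ± 3.76 FPKM (log2 fold change 3.34, adjusted p = 4.09e-06), and Il6ra fell from 17.4 ± 3.97 to 3.80 ± 0.62 FPKM (-2.16, adjusted p = 7.51e-07). In RANKL 72 h 4 were higher and 6 lower (29.4%, against 24.2% of all genes), or 2 and 11 when centred. Ghr, the growth hormone receptor, rose (0.513 ± 0.195 to 2.72 ± 0.818 FPKM), as did Ifngr1 (61.5 ± 4.3 to 114 ± 16.6 FPKM), a chain of the IFN-gamma receptor. Il7r fell from 63.5 ± 21.9 to 20.1 ± 10.4 FPKM. In LPS 72 h 6 were higher and 6 lower (35.3%, against 27.4% of all genes).

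Among 20 inhibitors of the pathway, 6 rose and 5 fell in LPS 4 h (8 and 3 when centred), 55% against 48.1% of all genes. Socs3, which blocks signalling from gp130, rose from 3.57 ± 1.77 to 467 ± 32 FPKM (log2 fold change 7.09, adjusted p = 2e-09), Socs1 from 14.4 ± 11.2 to 242 ± 60.4 FPKM, and Cish, a STAT5 target that dampens STAT5, from 1.75 ± 0.668 to 16.1 ± 9.66 FPKM. Socs3 was still at 70.6 ± 8.61 FPKM in LPS 72 h, where 3 were higher and 1 lower (20%, against 27.4% of all genes). In RANKL 72 h only Socs1 was called (5%, against 24.2% of all genes, or 3 lower when centred). It stood at 2.56 ± 1.37 FPKM (log2 fold change -2.30, adjusted p = 0.0104).

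Of 19 interferon response genes 9 were higher in LPS 4 h (15 when centred) and 0 lower, led by the chemokine gene Cxcl10 (49.9 ± 55.6 to 4890 ± 334 FPKM). The 47.4% called is near the 48.1% of all genes, of which 8.43% were higher and 39.7% lower. In LPS 72 h 12 were lower than in control and 0 higher (63.2% called, against 27.4% of all genes). Of 13 listed STAT3 and STAT5 targets, 7 rose and 3 fell in LPS 4 h (76.9%, against 48.1% of all genes). Their median log2 fold change was 1.12. Bcl3 (12.7 ± 1.46 to 123 ± 32.6 FPKM), Junb (46.4 ± 9.08 to 398 ± 83.9 FPKM) and the kinase gene Pim1 (53.6 ± 14.2 to 424 ± 46.8 FPKM) rose, while the cyclin gene Ccnd1 fell (68.6 ± 13.6 to 8.81 ± 3.1 FPKM). In RANKL 72 h 3 were higher and 4 lower (53.8%, against 24.2% of all genes), or 1 and 5 when centred, with Pim1 at 16.9 ± 2.70 FPKM. In LPS 72 h 2 were higher and 4 lower (46.2%, against 27.4% of all genes), with a median log2 fold change of -0.55. Junb (112 ± 4.21 FPKM) and Bcl3 (28 ± 1.66 FPKM) rose there, and Ccnd1 (13.3 ± 9.9 FPKM) and Myc (20.6 ± 2.97 to 4.72 ± 1.69 FPKM) fell.

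Of 12 tested STAT6 targets, 1 was higher and 6 were lower in LPS 72 h, the group where Stat6 itself stood highest. The 58.3% called compares with 27.4% of all genes. Chil3, an alternative-activation marker, fell from 450 ± 208 to 16.3 ± 14.4 FPKM (log2 fold change -5.04, adjusted p = 0.000126), and Mgl2 (3.92 ± 2.0 to 0.106 ± 0.0566 FPKM) and Pparg (12.8 ± 2.88 to 1.92 ± 0.432 FPKM) fell too, whereas Arg1 rose from 27.3 ± 22.9 to 249 ± 131 FPKM (3.43, adjusted p = 0.00334). The median over the 12 was -1.42, against 0.08 over all genes. Markers of some other cells were lower in that group too, while others overlapped control. The 10 neutrophil markers summed to 7706 to 24148 FPKM in control and 322 to 2042 FPKM in LPS 72 h. The 8 B cell markers summed to 83 to 109 and 54.9 to 77.8 FPKM. T and NK cell markers summed to 14.2 to 77.6 FPKM in LPS 72 h and 18.8 to 44.1 FPKM in control. Stromal markers summed to 133 to 589 and 183 to 405 FPKM. The 7 measured dendritic cell markers summed to 18.5 to 37.8 FPKM in control and 3.7 to 5.67 FPKM in LPS 72 h, with 4 and 2 of them at 1 FPKM or more and Siglech at 0 in LPS 72 h. The 8 mast cell and basophil markers summed to 28.8 to 90.3 and 3.23 to 7.2 FPKM, with 5 and 2 at 1 FPKM or more and Fcer1a at 0 in LPS 72 h. The part of these cell types in the fall of the listed genes was not tested. In LPS 4 h, 3 of the STAT6 targets were higher (4 when centred) and 1 was lower, 33.3% against 48.1% of all genes. In RANKL 72 h 1 was higher and 2 were lower, 25% against 24.2% of all genes.

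**Figure D5:**
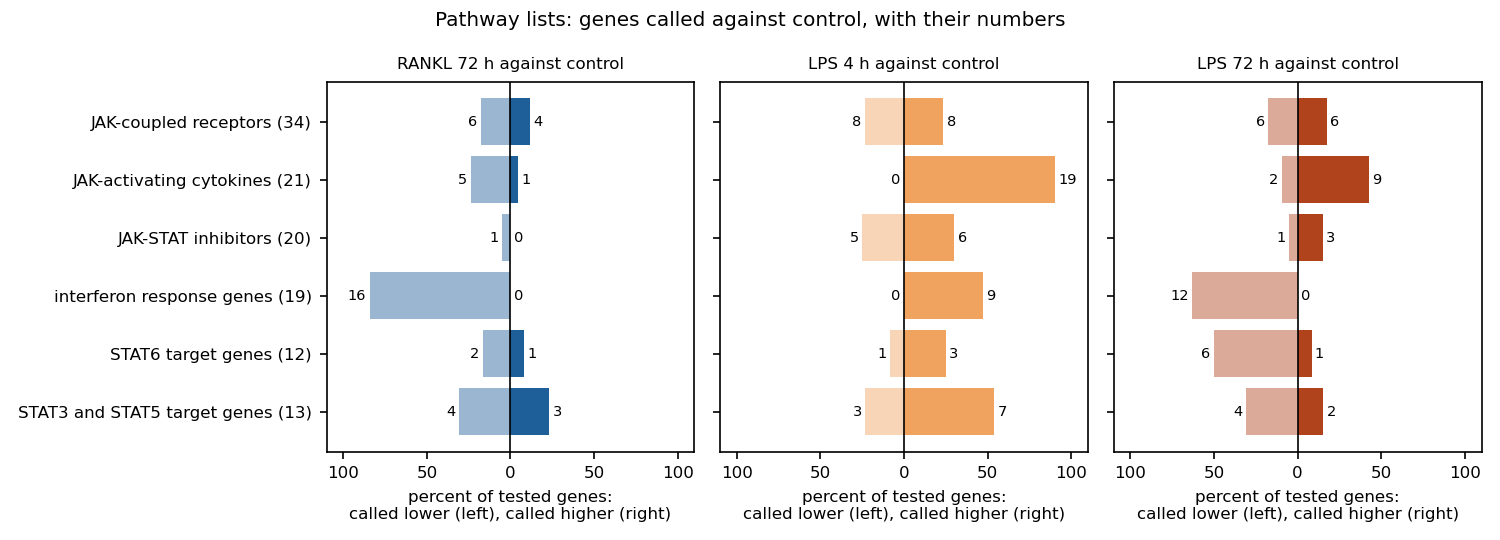
Share in percent of the tested genes of 6 pathway lists (numbers in brackets) called lower (to the left of 0) or higher (to the right) than control in RANKL 72 h, LPS 4 h and LPS 72 h, with the number of genes at each bar. Cytokines lead the rises in LPS 4 h with 19 of 21, and interferon response genes lead the falls in RANKL 72 h with 16 of 19. Cytokines high only with LPS could pass the filter through those groups. Of all tested genes, 8.43% were called higher in LPS 4 h and 7.54% lower in RANKL 72 h.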

How the data were processed

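RNA from 15 BMDM samples was extracted with a Qiagen RNeasy kit and made into libraries with a SMARTER mRNA-seq kit. The authors deposited the expression levels as FPKM, made by them with StringTie and Ballgown. The submitters' processing notes name the builds GRCm38.p4 and mm10, and the aligner and the use of strand are not given in the sources used here. The table as used ends at Tti2 in alphabetical order, and later genes are not analysed here.

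Genes averaging 0.1 FPKM or more (11743 of 20089, with 4453 at 0 in every sample and 1 incomplete entry left out) were tested with limma 3.58.1 in R 4.3.3, with a trend, on log2(FPKM + 0.1), in 1 fit of the 5 groups and 8 comparisons. The fold limits of 1.5 and 0.66 follow the study's methods, and the p-value limit of 0.05 was applied after Benjamini-Hochberg adjustment. The fit was tested on simulated data. Depth was read from whole fragments recovered from the FPKM steps (14484 of 14485 genes, tolerance 0.01 of a fragment), and limma voom on those fragments was an alternative chosen after seeing the data.

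Text names all 9 members, up to 3 genes called higher and 3 lower by size of change from each pathway list, and the 3 genes most correlated with a member among those at a mean of 1 FPKM or more. Members and lists were chosen with earlier results of these data known. Centring subtracted each sample's median log2 value, which need not bring the median log2 fold change to 0 (-0.13 in LPS 72 h against LPS 4 h). Labels number replicates 1 to 3 without saying that a number marks an animal or batch. Deviations of same-numbered samples correlated above 0.1 in every pair in 5 of the 8 comparisons, with mean r from 0.21 to 0.76, so a replicate block was fitted as an alternative.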

Additional observations from a re-analysis of the deposited data

Results flagged for a closer look

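LPS 72 h and LPS 4 h differed for 5 genes, by a fold past the limit and an adjusted p under 0.05 (limma, Benjamini-Hochberg adjustment over 11743 genes). No group was kept for 72 h in M-CSF alone, so the time with LPS and the time in culture cannot be told apart in this difference. On the log2 scale, the 72 h value minus the 4 h value was -2.32 for Jak2, -2.11 for Stat5a, -1.12 for Stat2 and -0.75 for Stat3, and 1.46 for Stat6. All 3 libraries at 72 h lay on 1 side of all 3 libraries at 4 h for each of the 5. Between RANKL at 72 h and at 4 h, 0 members passed both limits, while Jak3 had an adjusted p under 0.05 (0.0306) at a log2 fold change of 0.55, under the fold.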

How the results depend on the processing

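Of 1224 log2 fold changes of the 9 genes under the alternatives, 1148 kept their direction and their side of the threshold, 7 lost a call, 26 gained one and 43 changed sign, and 0 of the 323 that were called at first changed sign. With the replicate block as a term, 0 calls changed (4 members called in LPS 4 h against control, as without it), and with voom on recovered fragments 0 changed. With FPKM rescaled to equal sums, 2 members were called in RANKL 72 h (27.6% of all genes) and 2 in LPS 72 h (26.8%) against control, and 1 in RANKL 72 h against RANKL 4 h (26.5%). With samples centred on the median gene the counts were 2 in RANKL 72 h, 0 in LPS 72 h and 6 in LPS 4 h against control, 4 in RANKL 72 h against LPS 72 h, 7 in RANKL 4 h against LPS 4 h, 1 in RANKL 72 h against RANKL 4 h and 7 in LPS 72 h against LPS 4 h. With unadjusted p-values under 0.05, 1 was called in RANKL 4 h, 2 in LPS 72 h and 1 in RANKL 72 h against RANKL 4 h. The cause of these shifts was not tested.

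Uncalled values that changed sign when centred were those of Stat6 (-0.10) and Jak1 (-0.19) in RANKL 72 h, Stat5b in LPS 72 h (-0.02), Stat4 (0.15) and Stat5b (0.40) in LPS 4 h, Stat5b (-0.17), Stat6 (-0.07) and Jak1 (-0.16) in RANKL 72 h against 4 h, and Stat5b (-0.42), Jak1 (-0.39) and Jak3 (-0.61, then called) in LPS 72 h against 4 h. Stat5a in LPS 72 h was 0.03 with equal sums and 0.00 with voom.

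Leaving out 1 library at a time gave 1 to 2 members called in RANKL 72 h, 0 in RANKL 4 h, 1 to 3 in LPS 72 h and 4 in LPS 4 h against control, 2 to 4 in RANKL 72 h against LPS 72 h, 5 in RANKL 4 h against LPS 4 h, 0 to 1 in RANKL 72 h against 4 h and 5 in LPS 72 h against 4 h. In the same order, the shares of all genes called were 17.5% to 23.5%, 0.00852% to 0.128%, 21.1% to 33.7%, 44.0% to 48.7%, 30.6% to 41.3%, 46.5% to 49.5%, 16.5% to 21.5% and 53.5% to 60.6%. In RANKL 72 h against 4 h, the call came from Jak3 without RANKL 72 h replicate 3 (0.71) or RANKL 4 h replicate 2 (0.63), or from Stat2 without RANKL 4 h replicate 3 (-1.08). Small uncalled values ranged across 0, with Jak1 from -0.04 to 0.16 in RANKL 72 h. In RANKL 4 h the ranges were -0.06 to 0.13 for Stat5a, -0.10 to 0.07 for Stat6, -0.12 to 0.10 for Jak1, -0.09 to 0.10 for Jak2 and -0.11 to 0.04 for Jak3. Stat5a in LPS 72 h ranged from -0.06 to 0.08. Stat4 ranged from -0.14 to 0.67 in RANKL 72 h against LPS 72 h, from -0.33 to 0.31 in RANKL 4 h against LPS 4 h and from -0.77 to 0.05 in RANKL 72 h against 4 h. Stat5b ranged from -0.20 to 0.03 in RANKL 4 h against LPS 4 h and from -0.04 to 0.11 in RANKL 72 h against 4 h, where Jak1 ranged from -0.03 to 0.15. Jak3 in LPS 72 h against 4 h ranged from -0.08 to 0.14. Stat4, with 62 to 346 fragments per library, is the member whose depth limits it most.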
